A study of Mus musculus with 9 samples.

Results

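The cytosolic ribosome is built from ribosomal RNA and a fixed set of ribosomal proteins, shared between a small subunit that decodes the mRNA and a large subunit that forms the peptide bond. In mammals most ribosomal protein mRNAs belong to the TOP class: they begin with a cytosine followed by a run of pyrimidines (a terminal oligopyrimidine tract), through which mTORC1 and the RNA-binding protein LARP1 set how strongly they are translated and how stable they are. Neurons hold ribosomes in the cell body and in their processes, and translation is shut down early in ischaemic brain tissue. The genes described here are those encoding cytosolic ribosomal proteins, taken as the rows of the gene table named Rpl or Rps with a number, an optional letter and an optional further number, together with Rplp0, Rplp1, Rplp2 and Rpsa. The rule used the names alone and no measured value, but the family was chosen with earlier results of these data known. This gave 88 of the 37893 genes in the table, 53 counted as large and 35 as small subunit by their names. A name does not say whether the product is part of the ribosome.

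RNA came from 9 mice in 3 groups of 3. The sham_WT group were wild-type mice with sham surgery, sampled in the cerebral cortex. The IR_WT group were wild-type mice whose middle cerebral artery was occluded for 60 min and then reperfused for 1 day, sampled in the peri-infarct part of the ischaemic cortex. The IR_Matn3_ko group had the same occlusion, reperfusion and sampling in Matn3 -/- mice, which lack matrilin-3, a matrix protein known from cartilage. How the Matn3 allele was made, and the age and sex of the mice, are not given in the sources used here. The stated question was how matrilin-3 acts on glial scar formation, and the design names IR_WT against sham and IR_WT against IR_Matn3_ko as the comparisons. The first of these also compares a peri-infarct region with whole cortex, as far as the labels say.

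Totals ranged from 53400376 to 68370527 counts per library. Matn3 itself could not check the labels, because its counts were 0, 4 and 26 in the sham libraries, 33, 12 and 48 in IR_WT, and 0, 17 and 0 in the knockout. The 17 Matn3 counts of the second knockout library put its label in question without deciding it, as some wild-type libraries held fewer. It is called here the library labelled IR_Matn3_ko 2. The libraries also fell into 2 sets that follow the groups in part. Summed markers of small intestine stood at 10.2 to 13.2 CPM (counts scaled to the library total) in the 3 sham_WT libraries and IR_WT 1 and at 90.1 to 453 CPM in IR_WT 2, IR_WT 3 and the 3 IR_Matn3_ko libraries, while B cell markers went the other way, 199 to 298 against 16.2 to 36.4 CPM. Keratinocyte markers (49.4 to 108 against 14.9 to 21.6 CPM) and cartilage markers (56.3 to 312 against 27.5 to 44.6 CPM) divided the sets as B cell markers did. Results of the knockout comparisons are also given with these sets considered and without the library labelled IR_Matn3_ko 2. Neuron markers, which define the tissue, were present in every library, with a summed level of 5145 to 7765 CPM.

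Ribosomal protein mRNAs made up a larger part of the libraries from the knockout mice. Their share of all counts was 0.780%, 0.740% and 0.827% in sham_WT, 0.825%, 0.858% and 0.819% in IR_WT, and 1.09%, 1.13% and 0.985% in the knockout libraries. The lowest knockout library, replicate 3, lay above the highest of the other 6 libraries, whereas the sham_WT and IR_WT libraries overlapped. The group means were 0.782% ± 0.0437, 0.834% ± 0.0213 and 1.07% ± 0.0734 (SD, n = 3 mice each). In bulk tissue, more cells of a type that is rich in these mRNAs and more of these mRNAs per cell cannot be told apart.

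The members spanned a wide range of levels. Of the 88 members, 85 reached 0.5 FPKM (mapped fragments divided by gene length and library depth) in at least 3 of the 9 libraries and were tested, and their mean FPKM over the 9 libraries had a median of 38.4 and quartiles of 18.8 and 67.7. Rps15, which sits near the decoding site of the small subunit, and Rps3a1, also of the small subunit, had the highest levels, with mean FPKM of 240.6 and 239.8. Rpl4, whose extension lines the peptide exit tunnel, followed at 214.2, then Rpl19, which reaches across to the small subunit, at 183.8, and the stalk protein Rplp1 at 153.5. Within sham_WT the first of these stood at 220.5 ± 16.1 FPKM and the second at 228.2 ± 11.4 (SD, n = 3), so that their order lay within the spread between mice, while Rpl19 at 150.0 ± 10.6 and Rplp1 at 140.7 ± 13.3 FPKM overlapped as well. Levels between genes are per length and rest on the gene length the authors used. The 3 members left out were paralogs with little RNA in these libraries: Rpl3l, known from striated muscle, had 0 to 22 counts per library, Rpl39l, known from testis, 0 to 12, and Rpl10l, also known from testis, 0 to 2.

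**Figure D1:**
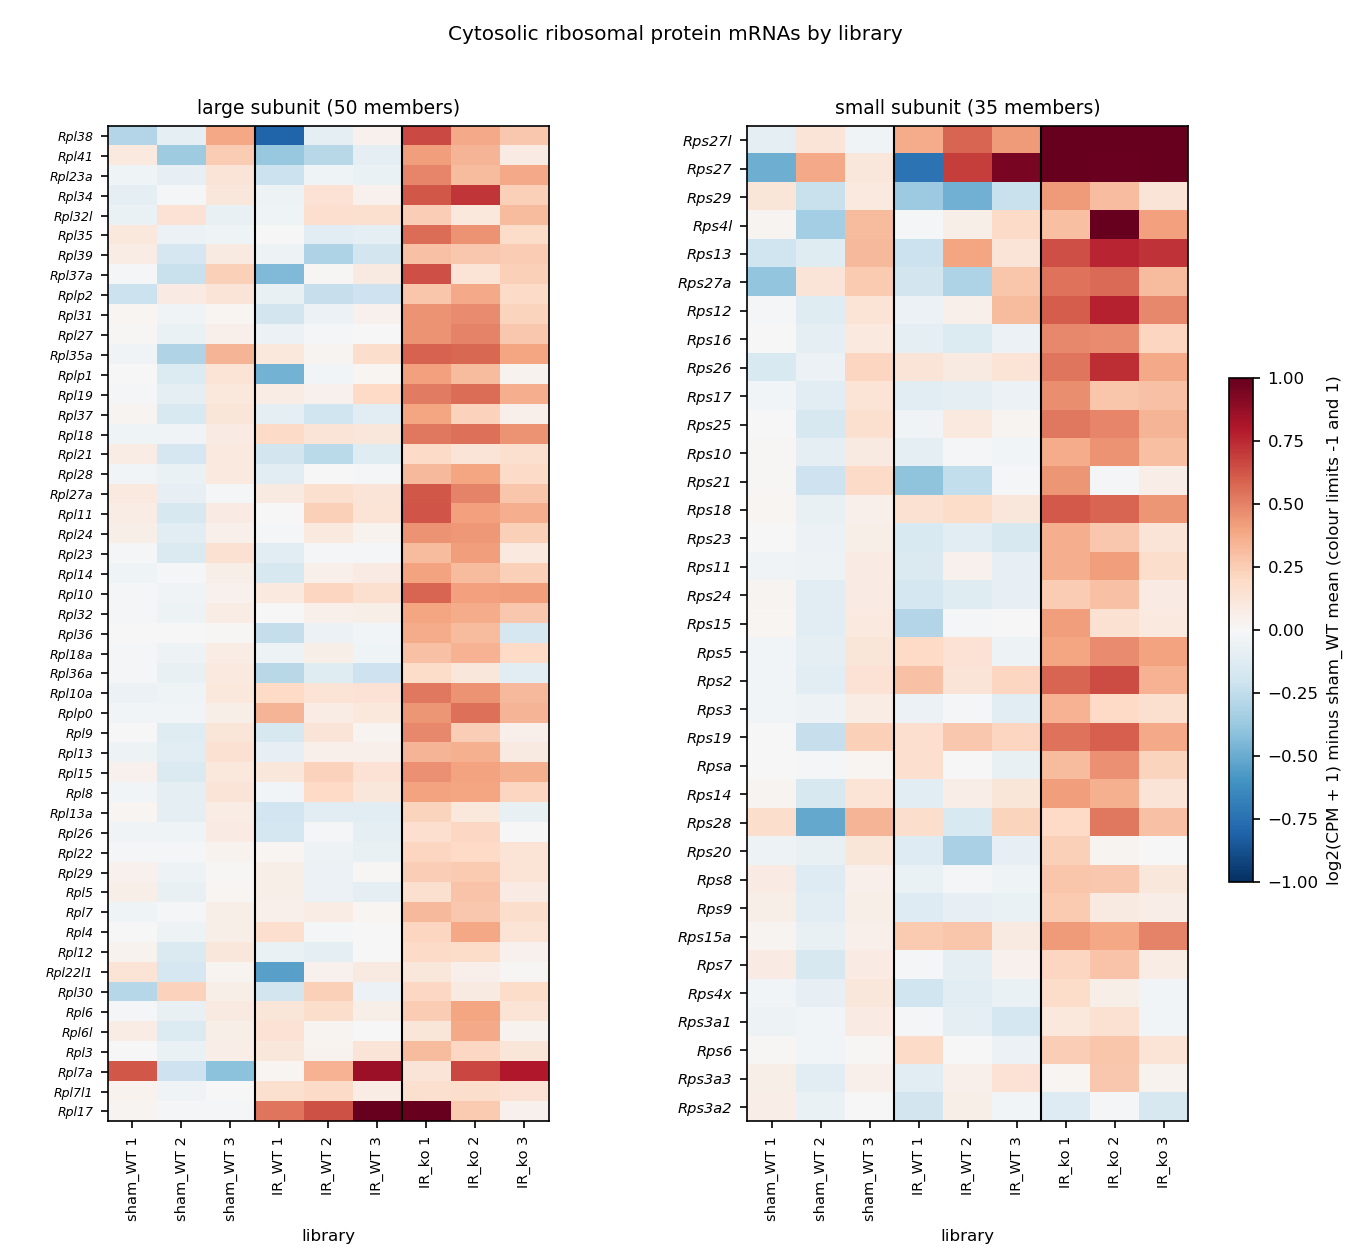
Level of each of the 85 tested ribosomal protein genes (rows, 50 of the large subunit on the left and 35 of the small subunit on the right, ordered by the IR_Matn3_ko minus IR_WT log2 fold change) in each of the 9 libraries (columns), as log2(CPM + 1) minus the sham_WT mean of that gene. IR_ko stands for IR_Matn3_ko; colours stop at -1 and 1, and the 3 right-hand columns of each panel are red for nearly every gene, with Rpl17, Rpl7a and Rps27 varying most between libraries of a group.

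Ischaemia and reperfusion in wild-type mice left the family close to its sham level on balance. Of the 85 tested members 41 were higher and 44 lower in IR_WT than in sham_WT, where 50.3% of all tested genes were higher. The median log2 fold change was -0.006 and the quartiles were -0.10 and 0.11, against a median of 0.002 for all 17247 tested genes. Without scaling factors 59 members were higher, with a median of 0.070 where that of all genes was 0.077. None passed an adjusted p of 0.05 in edgeR's quasi-likelihood test with Benjamini-Hochberg adjustment, in a comparison where 4.06% of all tested genes did (2.54% higher and 1.52% lower). At an unadjusted p under 0.05 there were 3 members higher and 1 lower, against 10.5% and 8.64% of all tested genes. The scaled CPM of the groups did not overlap for 10 members upward and 6 downward, against 13.1% and 12.5% of all tested genes. DESeq2 called 1 member higher, Rpl17, where it called 9.68% of all genes (5.59% higher), and limma called none.

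Rpl17, a large subunit protein beside the exit tunnel, had the largest upward difference of the members in that comparison. Its level was 23.7, 23.0 and 23.0 CPM in sham_WT, 34.1, 36.7 and 55.3 CPM in IR_WT, and 50.7, 28.1 and 23.9 CPM in IR_Matn3_ko (CPM here and below is scaled by the TMM factors of edgeR). All 3 IR_WT libraries lay above sham_WT, whereas 1 knockout library lay within the IR_WT range and the other two below it. The log2 fold change of IR_WT over sham_WT was 0.86 ± 0.27 (SE), with an adjusted p of 0.113 in edgeR and 0.0129 in DESeq2. Reads of Rpl17 may be shared with the 10 table entries named as its pseudogenes, and 3 other entries lie within it on the same strand, among them Snord58b. In the knockout, Rpl17 was 1 of 2 members below IR_WT, at -0.30 ± 0.27.

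Rps29, a small zinc-binding protein of the small subunit, had the largest downward difference after ischaemia. It stood at 23.8, 18.5 and 23.3 CPM in sham_WT and at 16.7, 15.3 and 18.5 CPM in IR_WT, just short of touching. In IR_Matn3_ko it stood at 29.6, 27.1 and 23.9 CPM, above both other groups in every library. The log2 fold change was -0.38 ± 0.13 (SE, adjusted p = 0.153, edgeR) in IR_WT against sham_WT and 0.67 ± 0.13 (adjusted p = 0.116, edgeR) in IR_Matn3_ko against IR_WT, with IR_WT shared between them. The other members at the low end were Rpl38, Rpl41, Rps21 and Rpl36a, with log2 fold changes between -0.28 and -0.21 and adjusted p between 0.290 and 0.587 in edgeR. At the high end after Rpl17 came Rps27l at 0.56 ± 0.19 (adjusted p = 0.134), Rpl32l at 0.50 ± 0.48, Rps27 at 0.45 ± 0.40 and Rpl7a at 0.38 ± 0.30 (edgeR, adjusted p of 0.534 to 0.616 for the last 3). Rpl32l had only 7 to 24 counts per library in these groups and the lowest mean FPKM of the tested members, 0.64. It also overlaps Map7 on the same strand.

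**Figure D2:**
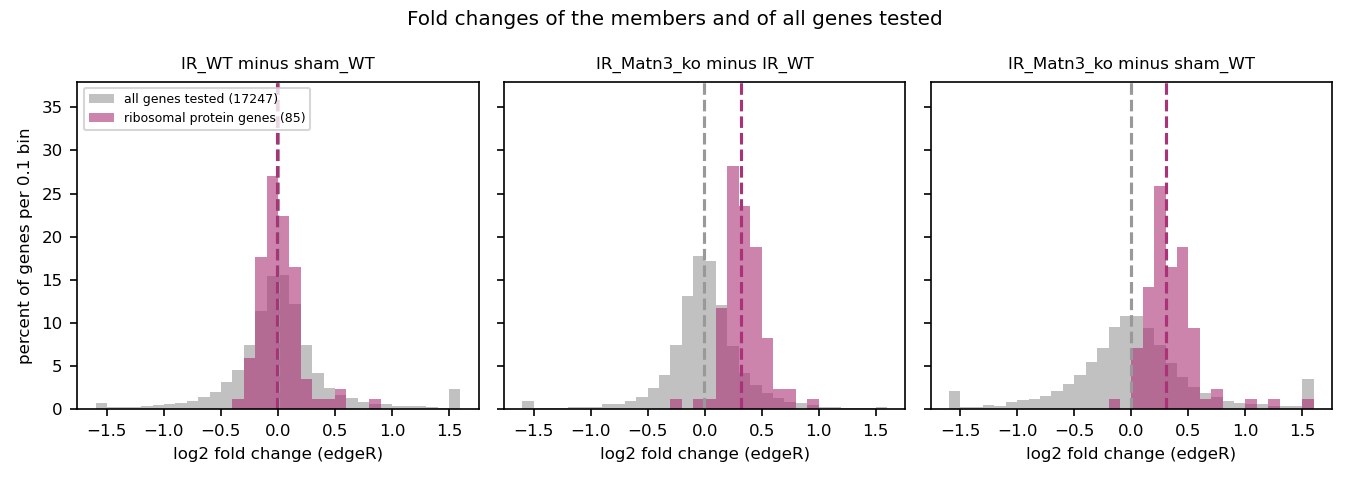
Distribution of the edgeR log2 fold change (x axis, bins of 0.1, values beyond 1.6 placed in the end bins) for the 85 tested ribosomal protein genes and all 17247 tested genes, as percent of each set, with dashed lines at the medians. The members' median lies at -0.006 in IR_WT minus sham_WT, at 0.32 in IR_Matn3_ko minus IR_WT and at 0.31 in IR_Matn3_ko minus sham_WT, and that of all genes lies within 0.002 of 0 in each.

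Nearly the whole family stood slightly higher in the knockout than in wild-type mice after the same ischaemia. In IR_Matn3_ko against IR_WT 83 of the 85 tested members were higher, where 49.8% of all tested genes were, with a median log2 fold change of 0.32, or 1.25-fold, and quartiles of 0.23 and 0.43 against a median of -0.001 for all genes. The 50 tested large subunit members had a median of 0.31 with 49 higher and the 35 small subunit members a median of 0.33 with 34 higher. No single member passed the adjusted threshold in edgeR, and neither did any other gene (0% of 17247 called), nor did limma call a member. At an unadjusted p under 0.05 there were 67 members higher and 0 lower, against 6.59% and 6.75% of all tested genes. The scaled CPM of the groups did not overlap for 68 members upward and 0 downward, against 9.42% and 8.44% of all tested genes. DESeq2 called 37 members higher and 0 lower, where it called 3.86% of all genes, and 2.16% of all genes higher.

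The shift was present in each knockout library, at unequal size. Taken singly against the IR_WT mean, IR_Matn3_ko 1 had a median difference of 0.38 with 82 of 85 members higher, the library labelled IR_Matn3_ko 2 had 0.34 with 84 higher, and IR_Matn3_ko 3 had 0.20 with 81 higher. Without the library labelled IR_Matn3_ko 2 the median over the members was 0.30, with 82 higher. In that refit edgeR called 61 genes, 26 of them higher, and 0 members. Against IR_WT 2 and 3 alone, which belong to the same library set as the knockout libraries, the median was 0.29 with 81 higher. IR_WT 1 had a median of -0.056 and IR_WT 2 and 3 together one of 0.012 relative to the sham_WT mean.

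Rps27l, a paralog of Rps27 that p53 is known to induce, had the largest difference in the knockout. It stood at 3.47, 4.22 and 3.66 CPM in sham_WT, 5.16, 6.16 and 5.42 CPM in IR_WT and 9.94, 13.4 and 9.07 CPM in IR_Matn3_ko. The 3 groups formed 3 separate ranges. IR_Matn3_ko was 1.93-fold above IR_WT, a log2 fold change of 0.95 ± 0.19 (SE), with an adjusted p of 0.116 in edgeR and 0.000438 in DESeq2. Rps27 itself is a zinc-binding protein of the small subunit. It stood at 9.25, 17.7 and 14.6 CPM in sham_WT, 7.62, 22.3 and 26.8 CPM in IR_WT and 39.9, 27.5 and 30.3 CPM in IR_Matn3_ko. The knockout libraries were the 3 highest, but IR_WT 1 lay below every sham library and the other IR_WT libraries above all of them, so the difference of 0.78 ± 0.40 had an adjusted p of 0.429 in edgeR.

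Rpl38, a large subunit protein whose loss in mice alters the skeletal pattern, stood at 14.4, 16.7 and 23.7 CPM in sham_WT, 9.86, 16.8 and 18.5 CPM in IR_WT and 28.8, 23.6 and 21.7 CPM in IR_Matn3_ko. The knockout libraries lay above IR_WT and overlapped sham_WT. The log2 fold change over IR_WT was 0.72 ± 0.25 (SE, adjusted p = 0.262, edgeR). Rps4l, a paralog of Rps4x, stood at 8.00, 5.98 and 10.004 CPM in sham_WT, 7.78, 8.20 and 9.11 CPM in IR_WT, and 9.89, 18.8 and 10.7 CPM in IR_Matn3_ko. The library labelled IR_Matn3_ko 2 was the only high one, and the log2 fold change of 0.65 ± 0.26 went to 0.30 without it.

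At the other end, the members lowest in knockout over IR_WT after Rpl17 were Rps3a2 at -0.06 ± 0.17 (0.0070 without scaling factors), Rpl7l1 at 0.02 ± 0.07, Rpl7a at 0.11 ± 0.30 and Rps3a3 at 0.12 ± 0.22 (log2 fold change ± SE, adjusted p between 0.862 and 0.941, edgeR). The SEs of Rpl7a and Rps3a3 are too wide to set these genes apart from the family's median of 0.32. Rpl7a, a large subunit protein, varied more within groups than between them, with 108, 60.3 and 52.5 CPM in sham_WT, 70.8, 89.4 and 127 CPM in IR_WT and 76.4, 112 and 123 CPM in IR_Matn3_ko. Its named pseudogenes take up 10 entries and 3 other entries lie within it. Rps3a2 and Rps3a3 are near copies of Rps3a1, so their reads may be assigned among the 3 uncertainly, and their highest levels were 5.32 and 2.75 FPKM.

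**Figure D3:**
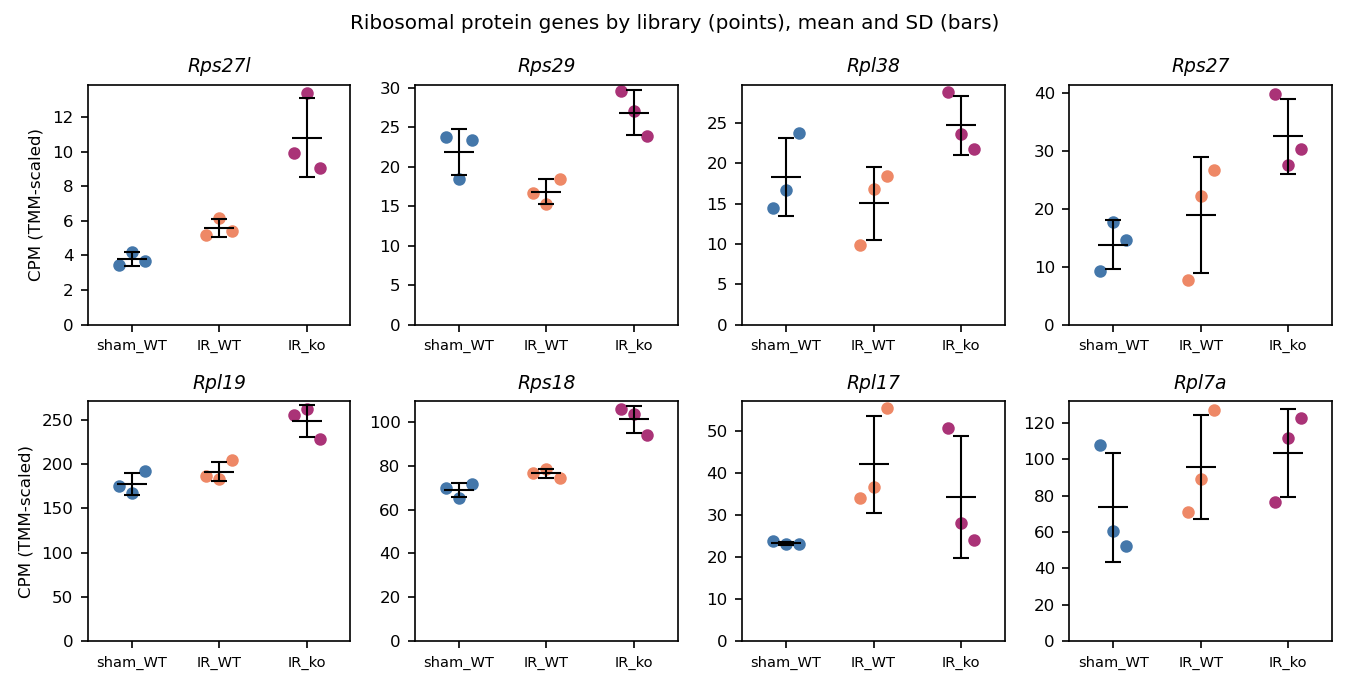
TMM-scaled CPM (y axis, from 0) of 8 ribosomal protein genes in the 3 sham_WT, 3 IR_WT and 3 IR_Matn3_ko (IR_ko) libraries, with a point per library and bars for the mean and SD. Rps27l, Rps29, Rpl38, Rps27, Rpl19 and Rps18 have all knockout points above all IR_WT points, while Rpl17 and Rpl7a do not.

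The stalk of the large subunit, which recruits elongation factors, followed the family. Rplp0, its base, stood at 189, 189 and 201 CPM in sham_WT, 244, 203 and 207 CPM in IR_WT and 262, 283 and 245 CPM in IR_Matn3_ko. The ranges were ordered without overlap, though the lowest knockout and the highest IR_WT library nearly met. The log2 fold change of IR_Matn3_ko over IR_WT was 0.27 ± 0.09 for Rplp0, 0.41 ± 0.15 for Rplp1 and 0.46 ± 0.11 for Rplp2 (SE, adjusted p of 0.247, 0.273 and 0.132, edgeR). Rpsa, a small subunit protein also described as a laminin receptor, stood at 367.0, 365.2 and 372.6 CPM in sham_WT, 413.2, 370.0 and 349.3 CPM in IR_WT and 459.6, 505.6 and 428.7 CPM in IR_Matn3_ko. All 3 knockout libraries exceeded the others, with a log2 fold change over IR_WT of 0.30 ± 0.09 (adjusted p = 0.203, edgeR).

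Values of paralogs are given side by side. Rpl22, a large subunit protein known in mice for its part in T cell development, and its paralog Rpl22l1 had log2 fold changes of IR_Matn3_ko over IR_WT of 0.22 ± 0.07 and 0.18 ± 0.18, and Rpl22l1 came to -0.004 without IR_WT 1, in which it was lowest at 8.50 CPM. Rpl7 had 0.21 ± 0.07 where Rpl7l1 had 0.02 ± 0.07, and Rps4x had 0.20 ± 0.08 where Rps4l had 0.65 ± 0.26. Rpl3, which borders the peptidyl transferase centre, had 0.12 ± 0.08, Rpl10, which joins the large subunit late in its assembly, 0.31 ± 0.07 and Rpl39, at the exit tunnel, 0.48 ± 0.12 (SE, adjusted p between 0.132 and 0.941 for these genes, edgeR). The difference within a pair was not tested.

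A further comparison, IR_Matn3_ko against sham_WT, was added after the data were seen, and in it surgery, sampled region and genotype cannot be told apart. It shares its samples with both comparisons above, so it is no separate evidence. Of the 85 tested members 84 were higher, 38 rose at an adjusted p of 0.05 in edgeR and 0 fell, against 22.5% of all tested genes called, 11.8% higher and 10.7% lower. The median log2 fold change was 0.31 against 0.000 for all genes. Of the 38, 21 belong to the large and 17 to the small subunit. DESeq2 called 48 members higher, including all 38, against 27.9% of all genes called and 14.5% called higher. The scaled CPM of the groups did not overlap for 56 members upward, against 21.6% of all tested genes, and at an unadjusted p under 0.05 there were 56 members higher, against 18.6%. In edgeR 21 members passed in each of the 9 refits that left out a library. The count was 23 without sham_WT 1, 22 without sham_WT 2, 26 without IR_Matn3_ko 1 and 30 without the library labelled IR_Matn3_ko 2. In the last of these refits the members' median was 0.28, with 84 higher. Without scaling factors the count was 65, with the median of all genes at 0.144. With a term for the library set, which coincides with the groups except for IR_WT 1, only Rps27l, Rpl18 and Rplp0 passed in edgeR (log2 fold changes 1.35, 0.59 and 0.70, adjusted p = 0.0469, 0.0333 and 0.0203), where 6.21% of all tested genes did, 3.57% higher. The members' median was then 0.25, with 70 of 85 higher. The part of the library set in this result was not tested further.

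The members with the smallest p in that comparison came from both subunits. Rps27l rose by 1.51 ± 0.19 on the log2 scale (adjusted p = 0.000767, edgeR), or 2.85-fold. Rps18, at the head of the small subunit, stood at 70.0, 65.4 and 71.5 CPM in sham_WT, 76.5, 78.6 and 74.4 CPM in IR_WT and 106, 104 and 94.1 CPM in IR_Matn3_ko, and rose by 0.55 ± 0.08 over sham (adjusted p = 0.00109, edgeR). Rpl18, a large subunit protein, stood at 58.2, 58.5 and 63.6 CPM in sham_WT, 68.8, 65.6 and 65.2 CPM in IR_WT and 87.0, 88.5 and 82.4 CPM in IR_Matn3_ko, and rose by 0.52 ± 0.07 (adjusted p = 0.0012, edgeR). In both genes the IR_WT libraries lay between the other groups without touching either. Rpl10, Rps15a, Rpl19, Rpl10a, Rps2, Rpl27 and Rps12 rose by 0.42 to 0.64 (adjusted p of 0.0023 to 0.00677, edgeR). Rpl27 was not raised in IR_WT, at 47.1, 44.4 and 48.3 CPM in sham_WT, 44.8, 45.9 and 46.4 CPM in IR_WT and 64.0, 66.2 and 56.3 CPM in IR_Matn3_ko.

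The start sites of these genes show the sequence that defines the TOP class in part of the family. RefSeq promoter windows (GRCm38.p6, from 250 bases before to 50 after the annotated start) matched 64 of the 88 members with 76 entries. A tract was counted where a C followed by at least 4 pyrimidines (C or T) began within 5 bases of the annotated start on the sense strand. This held for 42.1% of the members' entries against 18.3% of all 32851 entries and 19.7% of the entries of tested genes. A tract exactly at the start was in 18.4% of the members' entries, against 2.51% and 2.38%. The windows below run from 15 bases before the start, 5′ to 3′ on the gene's strand, with the tract in capitals, and come first for the 10 members with the smallest p against sham_WT, whether or not they hold a tract. Rps27, Rpl38, Rpl7a, Rps15, Rpl22 and Rpl7l1, described above, follow for comparison and were picked after their values were seen.
Rps27l, chr9:66946071-66946100, plus strand: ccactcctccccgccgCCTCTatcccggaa
Rps18, chr17:33955651-33955680, minus strand: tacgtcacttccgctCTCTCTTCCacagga
Rpl18, chr7:45718056-45718085, plus strand: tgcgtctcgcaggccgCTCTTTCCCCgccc
Rpl10, chrX:74270801-74270830, plus strand: gttgttacagtggaagataggccgcctata
Rps15a, chr7:118116133-118116162, minus strand: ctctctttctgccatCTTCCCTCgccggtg
Rpl19, chr11:98026695-98026724, plus strand: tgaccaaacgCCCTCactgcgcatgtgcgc
Rpl10a, chr17:28328456-28328485, plus strand: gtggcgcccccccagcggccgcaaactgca
Rps2, chr17:24720048-24720077, plus strand: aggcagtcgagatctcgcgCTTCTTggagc
Rpl27, chr11:101442230-101442259, plus strand: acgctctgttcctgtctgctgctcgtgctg
Rps12, chr10:23787195-23787224, minus strand: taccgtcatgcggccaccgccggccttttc
Rps27, chr3:90213634-90213663, minus strand: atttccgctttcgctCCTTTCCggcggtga
Rpl38, chr11:114668565-114668594, plus strand: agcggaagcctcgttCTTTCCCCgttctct
Rpl7a, chr2:26910792-26910821, plus strand: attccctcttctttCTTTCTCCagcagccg
Rps15, chr10:80292416-80292445, plus strand: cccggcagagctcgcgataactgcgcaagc
Rpl22, chr4:152325711-152325740, plus strand: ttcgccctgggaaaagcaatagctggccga
Rpl7l1, chr17:46782642-46782671, minus strand: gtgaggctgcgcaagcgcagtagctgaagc

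Of the 10 members with the smallest p, Rpl10, Rpl10a, Rpl27 and Rps12 have no tract by this count. Rpl7a has a tract, and its log2 fold change of IR_Matn3_ko over IR_WT, 0.11 ± 0.30 (SE), is too uncertain to call it unchanged. The tract starts at the annotated start in Rps18, Rps15a, Rps27 and Rpl38, 1 base after it in Rps27l and Rpl18, 4 bases after it in Rps2, 1 base before it in Rpl7a and 5 bases before it in Rpl19. The 30 tested members with a tract in an entry had a median log2 fold change of IR_Matn3_ko over IR_WT of 0.39, from 0.11 to 0.95, and the 31 with an entry but no tract one of 0.30, from 0.02 to 0.60. All members of both sets were higher. In IR_WT against sham_WT the same sets had medians of 0.02 and -0.0001. Annotated starts can lie off the true start by some bases, so the absence of a tract in a window says only that these letters are not there. In the whole window of 300 bases, CTTTCC on either strand was in 48.7% of the members' entries against 26.6% of all and 26.2% of those of tested genes. CCGGAAG, the core bound by ETS factors, was on either strand in 35.5% against 8.86% and 15.3%.

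Other genes of the ribosome and of its supply were read from lists. Against sham_WT their counts are read beside the 11.8% of all tested genes that edgeR called higher and the 10.7% it called lower there, or the 3.57% called higher with a term for the library set. Some lists were mostly higher in IR_WT than in sham_WT already, where 50.3% of all tested genes were. This held for 14 of 18 translation factors, 23 of 31 assembly factors, 11 of 14 polymerase I genes and 15 of 19 mTORC1 genes. The family had 41 of 85 higher and the mitochondrial ribosomal protein genes 34 of 78. Fau, Rack1 and Rpl36al encode ribosomal proteins or a ribosome-bound protein but fall outside the name rule. All 3 were higher in IR_Matn3_ko than in IR_WT, by 0.21 to 0.45 on the log2 scale (median 0.38, adjusted p of 0.126 to 0.309, edgeR), and 2 of them, Fau and Rpl36al, rose against sham_WT by 0.51 ± 0.10 and 0.50 ± 0.09 (adjusted p = 0.0064 and 0.00381, edgeR; 0 of the 3 with the library set term). Of 18 translation factors and related proteins with TOP mRNAs, 17 were higher in IR_Matn3_ko than in IR_WT with a median of 0.17. Against sham_WT 8 of them (44.4%; 4 with the library set term) rose and 0 fell, among them Btf3 by 0.72 ± 0.09 and Naca by 0.46 ± 0.08, which form the complex on nascent chains, and the nucleolar protein Npm1 by 0.49 ± 0.10 (adjusted p = 0.000574, 0.00299 and 0.00717, edgeR). The most abundant elongation factors differed less from IR_WT, Eef1a1 by 0.18 ± 0.10 and Eef2 by 0.04 ± 0.08 (adjusted p of 0.483 and 0.868, edgeR).

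Ribosome assembly factors lay between the family and all genes. Of 31, 25 were higher in IR_Matn3_ko than in IR_WT with a median of 0.13, and 11 (35.5%; 3 with the library set term) rose and 0 fell against sham_WT. Nop2, a methyltransferase of ribosomal RNA, rose by 0.79 ± 0.11, the nucleolar protein Mybbp1a by 0.62 ± 0.10 and Rrs1, which acts in large subunit assembly, by 0.54 ± 0.09 (adjusted p = 0.00144, 0.00282 and 0.00408, edgeR). In IR_WT against sham_WT these 3 had log2 fold changes of 0.46, 0.34 and 0.34 (adjusted p = 0.0531, 0.0996 and 0.0789, edgeR). Of 14 genes of RNA polymerase I transcription, which makes ribosomal RNA, 11 were higher than in IR_WT with a median of 0.10, and 2 (14.3%; 0 with the library set term) rose against sham_WT, a share near that of all genes, the initiation factor Rrn3 by 0.43 ± 0.10 and the polymerase subunit Cd3eap by 0.37 ± 0.11 (adjusted p = 0.0151 and 0.0348, edgeR).

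Regulators of TOP mRNAs did not share the shift. Of 19 genes of mTORC1 and TOP control, 10 were higher in IR_Matn3_ko than in IR_WT with a median of 0.01, Larp1 at 0.16 ± 0.15 and Mtor at -0.13 ± 0.09 (adjusted p of 0.691 and 0.579, edgeR). Against sham_WT, Sesn2, a stress-induced inhibitor of mTORC1, rose by 2.04 ± 0.37 and Eif4ebp1, a repressor of cap-dependent translation, by 1.14 ± 0.31, while the S6 kinase gene Rps6kb2 fell by 0.50 ± 0.13 (adjusted p = 0.00463, 0.0278 and 0.021, edgeR). These are 10.5% of the list higher and 5.26% lower, close to or under the shares of all genes, and with the library set term 1 passed higher and 0 lower. None of these 3 passed in edgeR between IR_Matn3_ko and IR_WT. The 78 tested mitochondrial ribosomal protein genes, which serve a separate ribosome, had a median of 0.095 over IR_WT with 61 higher, and 6 (7.69%; 1 with the library set term) rose and 3 (3.85%; 0) fell against sham_WT, both under the shares of all genes. In IR_Matn3_ko against IR_WT edgeR called no gene of these 6 lists, where it called 0% of all genes. DESeq2 called higher there, where it did so for 2.16% of all genes, 2 of the 3 genes outside the name rule, 2 translation factors, 1 assembly factor, 2 mitochondrial ribosomal protein genes and 0 of the other lists, and called 0 lower.

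**Figure D4:**
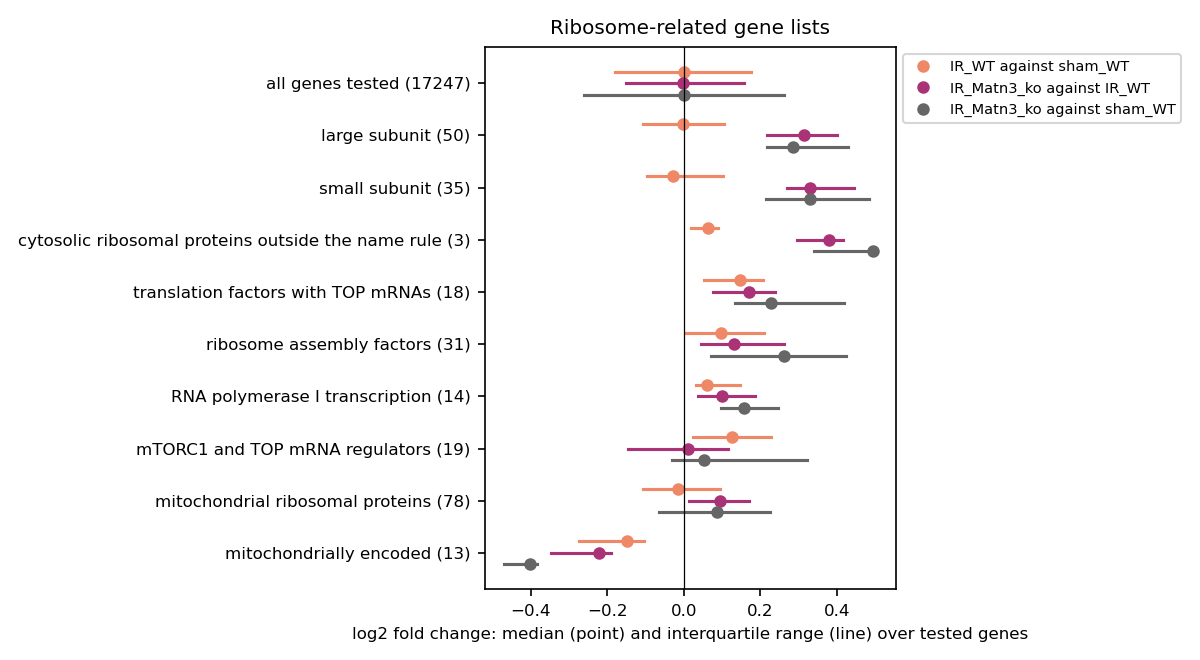
Median (point) and interquartile range (line) of the edgeR log2 fold change over the tested genes of each ribosome-related list (number in brackets) in 3 comparisons. In IR_Matn3_ko against IR_WT the large and small subunit lie at 0.31 and 0.33, the 3 genes outside the name rule at 0.38, all other lists at 0.17 or below and all genes at -0.001.

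Several other measures moved with the shift. Other genes of short exonic length were also higher in the knockout. Exonic length here joins all annotated exons of a gene over its transcripts, so it can exceed the length of its mRNA. A gene can thus fall in a long class without a long mRNA. Among protein-coding genes outside the family, those under 1000 bases (338 genes) had a median log2 fold change over IR_WT of 0.16 with 68.6% higher. Those from 1000 to below 2000 bases had 0.09, those from 2000 to below 4000 bases 0.03 and those of 8000 bases or more -0.07. In the same length classes the ribosomal protein genes had medians of 0.40 (16 members), 0.33 (33 members) and 0.27 (30 members), and 0.30 for the 6 members from 4000 to below 8000 bases, where other genes had -0.007. Across the 85 members Spearman's rho between exonic length and this fold change was -0.284, as a description over genes that share the same libraries. The 109 tested entries named as ribosomal protein pseudogenes had a median of 0.33 with 98 higher, close to the family, and 58 of the 88 members have at least 1 such entry.

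**Figure D5:**
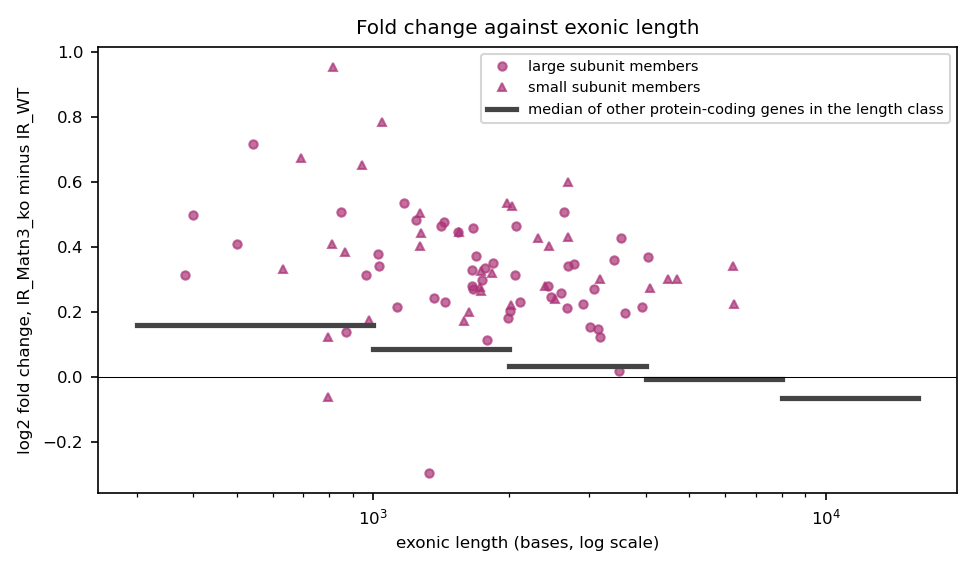
Log2 fold change of IR_Matn3_ko over IR_WT (y axis) against exonic length in bases (x axis, log scale) for the tested ribosomal protein genes, with bars at the median of the other protein-coding genes in each of 5 length classes. Exonic length joins all annotated exons of a gene and can exceed the length of its mRNA. The other genes go from 0.16 under 1000 bases to -0.07 at 8000 bases or more, and the members' medians, 0.27 to 0.40, lie above the bars of their classes.

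Cell type markers moved as well. Relative to the library total, summed neuron markers (7 genes) were at 7622 to 7765 CPM in sham_WT, 6202 to 7400.1 CPM in IR_WT and 5145 to 6462 CPM in IR_Matn3_ko, and 0 of 7 were higher in the knockout than in IR_WT. Summed microglia and macrophage markers (7 genes) were at 187 to 206, 247 to 286 and 292 to 334 CPM, with 4 of 7 higher. Astrocyte markers (6 genes) were at 3399.9 to 3960.2, 3200.8 to 3799.5 and 1950.0 to 2821.9 CPM in the 3 groups in that order, with 1 of 6 higher. Oligodendrocyte markers (6 genes) were at 3370.1 to 5226.4, 2303.0 to 2863.2 and 2166.4 to 2406.1 CPM, with 0 of 6 higher, and endothelial markers (5 genes) at 125 to 158, 149 to 189.9 and 156 to 219 CPM, with 3 of 5 higher. Neutrophil and monocyte markers (6 genes, 2 tested) were low, at 3.09 to 4.68, 2.87 to 5.88 and 7.84 to 12.1 CPM. All entries named as mitochondrially encoded (mt-), not only mRNAs, took 8.52% to 10.1% of counts in sham_WT, 6.69% to 9.95% in IR_WT and 7.24% to 8.14% in IR_Matn3_ko. No listed marker was at 0 in all libraries. The part of length, of pseudogene reads, of the library set and of cell composition in the higher ribosomal protein levels was not tested.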

How the data were processed

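The libraries were made from poly(A) RNA with a strand-marking kit and UMI adapters, per the labels' protocols. The authors deposited a table with raw counts and FPKM per library, per the file headers. The tools named in the submitters' processing notes are HISAT2 2.0.4, StringTie 1.3.4d, cutadapt 1.9, edgeR, DESeq2 and UMI-tools, without roles. A human build, GRCh38, is named there, but 37764 identifiers match the mouse annotation GENCODE M21, whose exonic lengths were used. The sources used here do not say whether counts are of molecules or reads, or how strand and shared reads were treated. Of the 88 members, 48 overlap another entry, 35 on the same strand.

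Groups came from the titles, and each mouse was a sample, per the design text. The 17247 genes that reached 0.5 FPKM in 3 or more libraries were tested with edgeR 4.0.16 (glmQLFit and glmQLFTest, R 4.3.3) on the counts, with TMM factors of 0.948 to 1.07, 3 group means in 1 model and Benjamini-Hochberg adjustment over all of them at 0.05, two-sided. Standard errors were computed from the test. DESeq2 1.42.0 and limma 3.58.1 on log2(FPKM + 1), with a pseudocount of 1, were alternatives, beside other scalings, no filter, each library left out, a replicate block, a term for the library set and fits of 6 libraries. The procedures were tested on simulated data with planted changes larger than the family's shift, so that test does not cover a shift of this size. The members, lists and comparisons were chosen with earlier results of these data known. Named members were the 5 highest and 5 lowest in each of the 2 planned comparisons, the 5 with the highest mean FPKM, up to 10 called with the smallest p, the paralog pairs, the stalk proteins and Rpsa, and from each list up to 3 genes called. Fau, Rack1, Rpl36al, Eef1a1, Eef2, Larp1 and Mtor were named outside this rule, after their values were seen. Not every gene of these lists is reported here. All per-sample columns were used.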

Additional observations from a re-analysis of the deposited data

How the results depend on the processing

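For IR_Matn3_ko against IR_WT the members' median log2 fold change stayed between 0.284 and 0.362 when each library was left out (0.28 without IR_Matn3_ko 1, 0.36 without IR_Matn3_ko 3), and 0 members were called in each of these refits by edgeR. DESeq2 called 37 members and 664 genes there, limma 38 genes, the library set term 34 genes, and leaving out single libraries gave 0 to 61 genes. In IR_WT against sham_WT the member called by DESeq2 (1), without IR_Matn3_ko 1 (0 to 1 over the refits) and with only the 6 libraries (1) was Rpl17, and the median went from -0.0502 to 0.0293 over the refits, to 0.085 with limma and to -0.0589 with the library set term, where 30 of 85 members were higher instead of 41. Genes called there, 701 in all, were 1664 with DESeq2, 418 without the filter, 410 with the replicate block, 407 with the library set term and 242 to 996 without single libraries. In IR_Matn3_ko against sham_WT the 38 members called became 65 without scaling factors, 63 with limma, 3 with the library set term and 22 to 41 without single libraries. The median became 0.45 without scaling, 0.43 with limma and 0.25 with the library set term, where 70 of 85 members were higher instead of 84, and the 3887 genes called became 1071 with the library set term and 2139 to 4182 without single libraries. Without scaling factors the median of all genes moves by 0.144 in this comparison, and the share of calls that are higher goes from 52.4% to 75.2% (62.5% to 79.2% in IR_WT against sham_WT). The cause of these differences was not tested, beyond the fewer samples of the refits.

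As shares of nuclear-encoded counts the members took 0.867%, 0.815% and 0.904% in sham_WT, 0.917%, 0.920% and 0.900% in IR_WT and 1.19%, 1.21% and 1.07% in IR_Matn3_ko.

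Among the members named in the text these signs turned, and the other members were only counted. In IR_WT against sham_WT Rpl22 came to 0.039 without scaling, 0.054 with limma and 0.019 with the library set term, under which Rpl7a came to -0.055, Rps27 to -0.86, Rpl32l to -0.34 and Rps4l to -0.040. Without single libraries Rps4l ranged from -0.107 to 0.259, Rpl4 from -0.010 to 0.081, Rpl22l1 from -0.244 to 0.068 and Rpsa from -0.032 to 0.089. In IR_Matn3_ko against IR_WT Rps3a2 came to 0.0070 without scaling, and Rpl7a to -0.062 and Rpl22l1 to -0.0087 with the library set term. Without single libraries Rpl7a ranged from -0.057 to 0.372, Rpl22l1 from -0.0044 to 0.302, Rps3a2 from -0.136 to 0.0074, Rpl7l1 from -0.015 to 0.044 and Rps3a3 from -0.0064 to 0.216.

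The replicate numbers have no stated meaning. Same-numbered libraries deviated from their group means with correlations from -0.240 to 0.172, and differently numbered ones from -0.205 to 0.347. With 3 libraries per group these values cannot decide whether the numbers pair the samples. With the replicate block 31 members were called in IR_Matn3_ko against sham_WT and 0 in the other comparisons. The planned border of 10 CPM between library sets could not be fitted, since all libraries lay above it, so 50 was used, chosen after seeing the data.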
